A study of Mus musculus with 12 samples.

Results

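Autophagy genes were examined in RNA-sequencing data of cortical microglia. The 34 members cover the steps from initiation to fusion and were chosen by name. Each was found in the deposited count table through the GRCm38 annotation (34 of 55487 listed genes), and each passed edgeR's filter on low counts, as did 15425 genes in all. By role, 4 act in initiation, 7 in the class III PI3K complex, 5 in membrane supply, 7 in conjugation, 5 are Atg8 proteins, 5 are cargo receptors and 1 is a tether.

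The libraries came from 12 male mice, 3 in each of 4 groups, on a C57BL/6J background. WT mice and App NL-G-F mice, whose own *App* gene is replaced by a humanized version with familial mutations of AD that is active wherever *App* is, were given PBS (veh) or the protein rh Bri2 BRICHOS R221E, a variant of the chaperone domain of Bri2. The dose was 10 mg/kg intravenously, given 2 times per week from 9 months of age for 12 weeks (24 injections), and tissue was taken after 4 further weeks without treatment. Cells were released from the cortex with papain and selected with beads against CD11b, which microglia share with other myeloid cells.

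Autophagy encloses cytosol, protein aggregates or damaged organelles in a double membrane and delivers them to the lysosome. The ULK1 complex starts the process, the class III PI3K complex marks the membrane with a lipid, and E1-, E2- and E3-like enzymes attach Atg8 proteins (the LC3 and GABARAP families) to it, where cargo receptors bind them and tie in ubiquitin-marked cargo. In microglia, parts of the same machinery also act on phagosomes, in LC3-associated phagocytosis, for which Rubcn is required, while Rubcn restrains the later steps of canonical autophagy.

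Between 12433402 and 17889654 reads per library were counted on genes, and the members had 109 to 21488 counts in a library, far above the 3 counts taken here as the smallest detectable level. Levels are normalized CPM (a gene's counts as a portion of all reads counted in its library, scaled with edgeR's TMM factors), and the SD of a member within a group was 5.75% of its mean in the median case (range 0.619% to 35.2%). The 9 microglial markers summed to between 28430 and 33100 CPM in every library. Markers of other cell types were also present, and none of those listed was at 0 in every library. The 8 astrocyte markers summed to 585.6 to 1109 CPM in the 6 WT libraries, to 5453, 4861 and 1729 CPM in App NL-G-F mice given veh and to 2283, 801.5 and 1514 CPM in App NL-G-F mice given rh Bri2 BRICHOS. The 7 oligodendrocyte markers ran the other way in the veh groups, with 9668 to 16930 CPM in WT and 3214 to 5635 CPM in App NL-G-F mice. Border macrophages carry CD11b too, and their 6 markers summed to 389.5 to 629.8 CPM in the 6 WT libraries and to 164.8 to 224.1 CPM in the 6 App NL-G-F libraries. The summed markers of neurons, mural cells and B cells were likewise lower in every App NL-G-F library than in every WT library. A fit with the astrocyte marker score as a covariate is given below. The part of the other markers in the strain differences was not tested. In such bulk samples, fewer cells of a type and less RNA per cell cannot be told apart.

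Per kilobase of annotated exon, the members spanned a wide range of levels in veh-treated WT mice. *Sqstm1* ranked highest with 140.2 ± 17.4 CPM per kb (SD, n = 3), followed by *Gabarap* with 115 ± 3.73, *Ulk2* with 43.0 ± 1.27, *Gabarapl1* with 37.9 ± 2.01 and *Map1lc3a* with 35.9 ± 2.05 CPM per kb. The last pair differed by less than the SD of either. Near the lower end lay *Atg7* at 3.49 ± 0.126 and *Atg9a* at 3.46 ± 0.492 CPM per kb, which do not differ beyond their SD. *Optn* had the lowest level of all 34 members, 2.68 ± 0.219 CPM per kb, and in App NL-G-F mice given veh it stood at 6.58 ± 0.285 CPM per kb.

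In App NL-G-F mice given veh, compared to WT mice given veh, 9 of the 34 members were higher at an adjusted p-value under 0.05 (26.5%, against 20.1% of all tested genes) and 4 were lower (11.8%, against 16.9%), so the share of members called was close to the background in both directions. The median log2 fold change of the members was 0.014, compared to -0.022 for all tested genes. The higher members were the cargo receptors *Optn* and *Sqstm1*, the conjugation enzymes *Atg7* and *Atg5*, 4 of the 5 Atg8 genes and *Vmp1*. The 4 lower ones, *Rubcn*, *Rb1cc1*, *Ulk2* and *Atg14*, were all in the initiation group (2 of 4) and the PI3K group (2 of 7). None of these 11 members was higher between the veh groups. With rh Bri2 BRICHOS this did not hold, since *Ulk1*, *Atg13* and *Pik3r4* of the same 11 were higher there. The counts of single role groups are small and were not tested against all genes. Between the veh groups, the App NL-G-F libraries lay above all WT libraries in 11 members and below them in 6 (32.4% and 17.6%, against 25.5% and 25.3% of all tested genes).

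**Figure D1:**
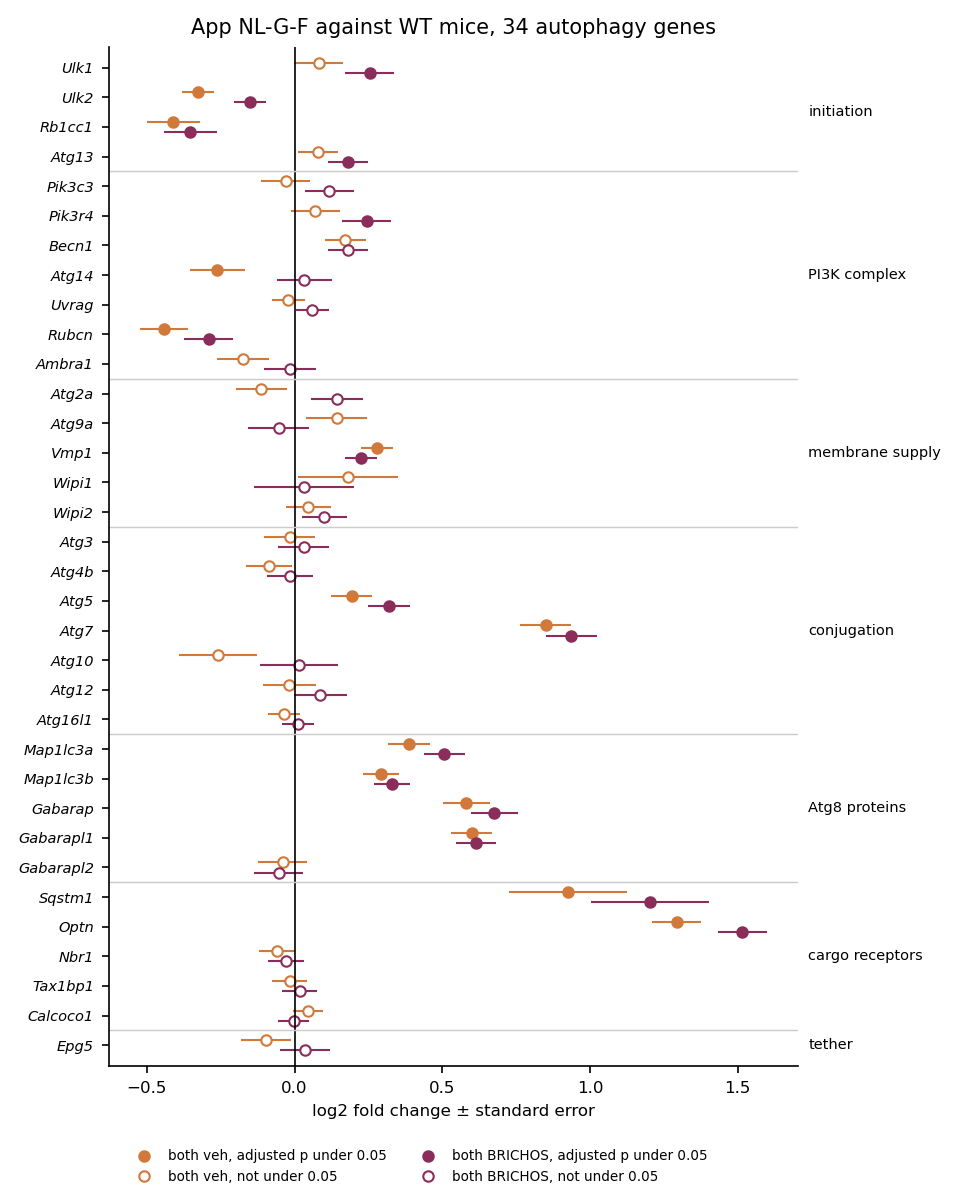
Log2 fold change ± standard error of the 34 members, grouped by role, App NL-G-F over WT, in mice that received veh (orange) or rh Bri2 BRICHOS (purple), from edgeR's fit of all 12 libraries. Filled points have an adjusted p-value under 0.05, and *Optn*, *Sqstm1* and *Atg7* lie farthest to the right in both comparisons.

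The cargo receptors showed the largest differences and also some of the smallest. *Optn* (ENSMUSG00000026672, GRCm38 chr2:5020642-5064051, minus strand) encodes optineurin, a receptor for ubiquitin-marked mitochondria, bacteria and aggregates. It had 11.02, 9.67 and 9.54 CPM in the veh-treated WT mice and 23.8, 25.9 and 24.4 CPM in the App NL-G-F mice given veh. Every App NL-G-F library was at more than 2 times the level of every WT library. The level was 2.45-fold higher (24.7 ± 1.07 against 10.1 ± 0.823 CPM, SD, n = 3 each, log2 fold change 1.29 ± 0.084 SE, edgeR adjusted p = 3.78e-07), the largest change and the lowest p-value of the 34 members.

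*Sqstm1* (ENSMUSG00000015837, chr11:50199366-50210827, minus strand) encodes p62, the receptor that gathers ubiquitin-marked protein into bodies and is itself degraded by autophagy. The veh-treated WT mice had 496, 512 and 404 CPM and the App NL-G-F mice given veh 885, 1018 and 777 CPM. The groups did not overlap, but the spread within each was wide for such an abundant transcript. *Sqstm1* rose 1.899-fold (log2 fold change 0.93 ± 0.20 SE, edgeR adjusted p = 0.00362). Without the App NL-G-F libraries 1 and 2, which had the highest astrocyte marker levels, its log2 fold change was 0.73 and its adjusted p-value 0.124.

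The other 3 receptors did not pass the test, and their groups overlapped. *Nbr1*, a relative of p62 that binds ubiquitin and LC3, had a log2 fold change of -0.06 ± 0.061 SE (adjusted p = 0.459). *Tax1bp1*, a receptor that acts with p62 on aggregates, had one of -0.02 ± 0.059 SE (adjusted p = 0.846), and *Calcoco1*, a receptor for endoplasmic reticulum and Golgi, one of 0.04 ± 0.052 SE (adjusted p = 0.521). Their standard errors of 0.052 to 0.061 were among the smallest of the members.

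**Figure D2:**
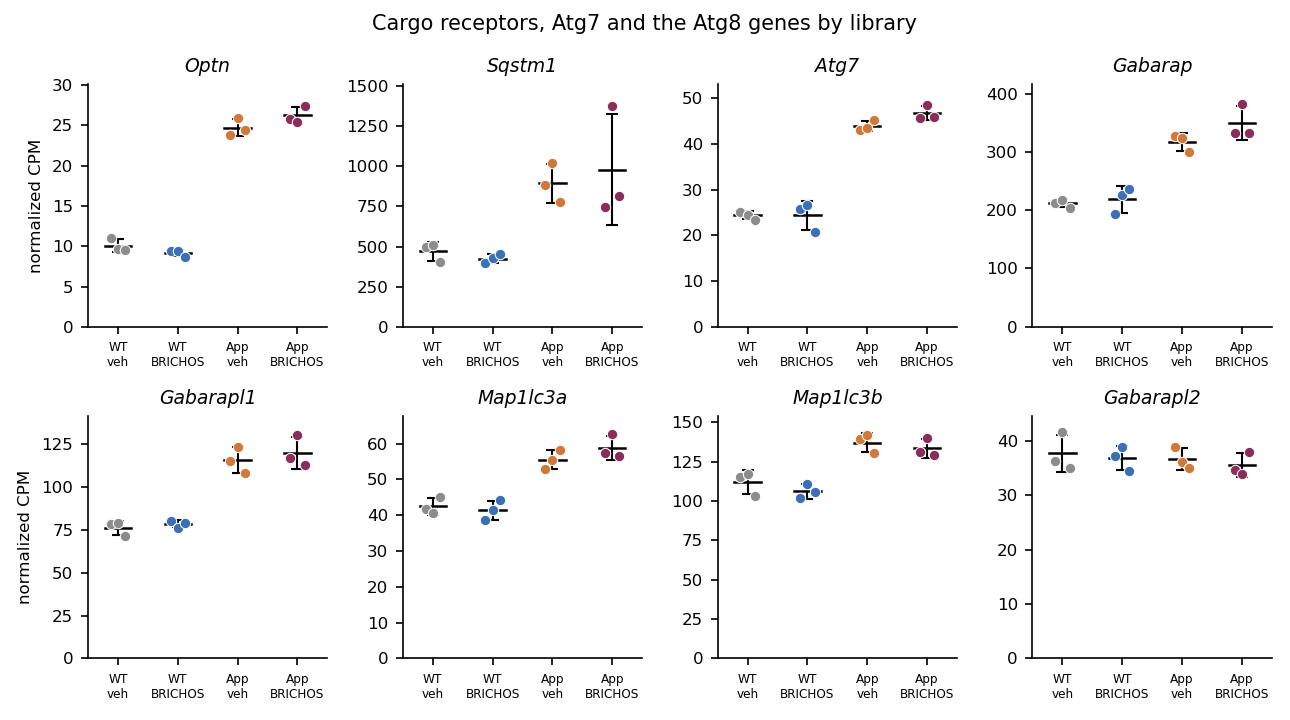
Normalized CPM in each of the 12 libraries (points), with the mean and SD of each group of 3 (lines), for *Optn*, *Sqstm1*, *Atg7* and the 5 Atg8 genes, on axes that start at 0. The App NL-G-F libraries lie above all WT libraries for every gene shown but *Gabarapl2*, and App NL-G-F mouse 2 of the rh Bri2 BRICHOS group stands apart for *Sqstm1* with 1375 CPM.

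Of the 5 Atg8 genes, whose products are the proteins attached to the growing membrane, 4 rose and *Gabarapl2* did not pass the test. *Gabarap* is the most abundant of them per kilobase. It had 213, 218 and 204 CPM in veh-treated WT and 328, 324 and 299.7 CPM in App NL-G-F mice given veh, a 1.496-fold difference (log2 fold change 0.58 ± 0.080 SE, edgeR adjusted p = 0.000168). *Gabarapl1* had 78.5, 78.8 and 71.7 CPM in WT and 115, 124 and 108 CPM in App NL-G-F mice, a 1.51-fold difference (log2 fold change 0.60 ± 0.069 SE, edgeR adjusted p = 3.98e-05). The lowest App NL-G-F library of either gene was well above the highest WT library.

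The 2 LC3 genes had smaller fold changes than *Gabarap* and *Gabarapl1*. *Map1lc3a*, which encodes LC3A, had 41.7, 40.5 and 45.2 CPM in WT and 52.9, 55.4 and 58.2 CPM in App NL-G-F mice (log2 fold change 0.39 ± 0.070 SE, edgeR adjusted p = 0.00122). *Map1lc3b*, which encodes LC3B, the form most often used as an autophagosome marker, had 115, 117 and 103 CPM in WT and 139, 142 and 130.3 CPM in App NL-G-F mice (log2 fold change 0.29 ± 0.061 SE, edgeR adjusted p = 0.00308). The groups of both genes did not overlap. Exons of *Map1lc3b* overlap those of *Zcchc14* on the opposite strand, and since the strand setting of the counting is not given in the sources used here, the reads of both cannot be told apart with certainty. *Zcchc14* itself had a log2 fold change of -0.12 (adjusted p = 0.195).

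*Gabarapl2*, which encodes GATE-16, had 36.4, 41.7 and 35.1 CPM in WT and 38.98, 36.2 and 34.97 CPM in App NL-G-F mice. The groups overlapped throughout (log2 fold change -0.04 ± 0.082 SE, edgeR adjusted p = 0.724).

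In the conjugation group, *Atg7* and *Atg5* rose and 5 members did not pass the test. *Atg7* (ENSMUSG00000030314, chr6:114643097-114860614, plus strand) encodes the E1-like enzyme that activates both Atg12 and the Atg8 proteins. It had 25.1, 24.5 and 23.4 CPM in veh-treated WT and 42.99, 43.5 and 45.2 CPM in App NL-G-F mice given veh. The spread within each group was small beside the distance between the groups, and the level was 1.802-fold higher (log2 fold change 0.85 ± 0.086 SE, edgeR adjusted p = 1.49e-05). *Atg5*, the protein joined to Atg12 in the E3-like complex, had 42.6, 48.8 and 47.2 CPM in WT and 49.6, 54.3 and 54.6 CPM in App NL-G-F mice. Its groups were separated by less than 1 CPM (log2 fold change 0.19 ± 0.070 SE, edgeR adjusted p = 0.049), and the call was lost in several other settings, for example with DESeq2's size factors (adjusted p = 0.0577).

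Partners of these enzymes gave no call. *Atg10*, the E2-like enzyme for Atg12, had 10.2, 11.4 and 10.5 CPM in WT and 9.97, 8.598 and 8.299 CPM in App NL-G-F mice. All 3 App NL-G-F libraries were below the WT ones, but the difference did not pass the test (log2 fold change -0.26 ± 0.13 SE, adjusted p = 0.147). The log2 fold changes were -0.02 ± 0.086 SE for *Atg3*, the E2-like enzyme for Atg8 proteins, -0.09 ± 0.078 SE for *Atg4b*, the protease that trims them, -0.02 ± 0.090 SE for *Atg12* and -0.04 ± 0.054 SE for *Atg16l1*, which directs the complex to the membrane (adjusted p = 0.415 to 0.896).

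The stretches before the transcription start are shown for the 3 members that rose most in the strain comparison, *Optn*, *Sqstm1* and *Atg7*, and for *Atg5* and *Rubcn*, which hold an E-box. Windows of 250 bases before to 50 bases after each start were taken from RefSeq (GRCm38.p6), where 27 of the 34 members are listed with 32 windows. They were searched on both strands for the E-box CACGTG, to which Tfeb, Tfe3 and Mitf bind, for the AP-1 motif TGANTCA and for the core of the antioxidant response element TGANNNNGC, to which Nfe2l2 (Nrf2) binds. The 250 bases before the start are printed 5′ to 3′ on the strand of the gene, with matches to the E-box or the antioxidant motif in capitals.
*Optn*, chr2:5064118-5064367, minus strand: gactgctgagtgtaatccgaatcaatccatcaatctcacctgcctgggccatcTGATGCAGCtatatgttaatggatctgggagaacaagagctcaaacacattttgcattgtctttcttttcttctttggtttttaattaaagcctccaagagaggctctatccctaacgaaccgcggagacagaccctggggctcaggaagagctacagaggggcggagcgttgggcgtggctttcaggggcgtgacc
*Sqstm1*, chr11:50210821-50211070, minus strand: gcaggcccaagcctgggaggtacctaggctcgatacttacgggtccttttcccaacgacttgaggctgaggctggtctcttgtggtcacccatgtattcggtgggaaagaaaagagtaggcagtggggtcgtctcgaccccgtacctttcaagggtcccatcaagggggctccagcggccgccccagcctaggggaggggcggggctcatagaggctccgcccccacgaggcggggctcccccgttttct
*Atg7*, chr6:114670846-114671095, plus strand: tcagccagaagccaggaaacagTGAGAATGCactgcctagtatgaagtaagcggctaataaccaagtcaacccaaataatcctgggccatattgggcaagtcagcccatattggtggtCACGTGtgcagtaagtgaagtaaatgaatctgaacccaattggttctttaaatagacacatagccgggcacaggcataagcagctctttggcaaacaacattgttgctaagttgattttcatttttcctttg
*Atg5*, chr10:44268089-44268338, plus strand: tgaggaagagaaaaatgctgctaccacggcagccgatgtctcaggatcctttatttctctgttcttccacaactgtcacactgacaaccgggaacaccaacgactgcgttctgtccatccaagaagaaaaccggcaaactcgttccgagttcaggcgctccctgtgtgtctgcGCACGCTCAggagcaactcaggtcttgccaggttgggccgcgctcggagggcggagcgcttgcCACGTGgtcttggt
*Rubcn*, chr16:32868367-32868616, minus strand: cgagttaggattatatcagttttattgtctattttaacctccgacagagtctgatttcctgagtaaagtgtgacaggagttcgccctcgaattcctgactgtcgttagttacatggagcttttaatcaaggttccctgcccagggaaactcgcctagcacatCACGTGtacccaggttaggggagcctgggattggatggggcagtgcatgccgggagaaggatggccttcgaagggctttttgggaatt

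The E-box was found in 5 of the 27 members (*Atg3*, *Atg5*, *Atg7*, *Atg14* and *Rubcn*). Counted by window, 5 of the members' 32 windows and 7.15% of all 32851 windows of the table hold it. These 5 do not share a direction in the strain comparison, in which *Atg7* and *Atg5* rose, *Rubcn* and *Atg14* fell and *Atg3* did not pass the test. In *Atg7*, *Atg5* and *Rubcn* the E-box begins 132, 14 and 88 bases before the start. The window of *Atg7* belongs to a start that lies inside the gene as GENCODE annotates it, and the one of *Rubcn* to the inner of its 2 listed starts. The antioxidant motif was found in 16 members, in 18 of their 32 windows and in 41.3% of all windows. It begins 197 bases before the start in *Optn* and 228 in *Atg7*, and 77 on the opposite strand in *Atg5*. The printed stretch of *Sqstm1* holds none of the 3 motifs. The AP-1 motif was in none of the members' windows and in 7.81% of all windows. Matches of this kind are letters in a window and not measured binding.

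Among the genes of membrane supply, *Vmp1* rose and 4 did not pass the test. *Vmp1* encodes a lipid scramblase of the endoplasmic reticulum that acts where the membrane is formed. It had 70.05, 62.98 and 64.3 CPM in WT and 76.6, 81.2 and 81.6 CPM in App NL-G-F mice (log2 fold change 0.28 ± 0.055 SE, edgeR adjusted p = 0.00204), so that the lowest App NL-G-F library was above the highest WT one. With library totals in place of TMM factors, which shifts the median of all tested genes to -0.21, the *Vmp1* difference was 0.09 (adjusted p = 0.292). *Atg9a*, the scramblase carried on the vesicles that seed the membrane, had a log2 fold change of 0.14 ± 0.10 SE. It was -0.11 ± 0.087 SE for *Atg2a*, a lipid transfer protein, 0.18 ± 0.17 SE for *Wipi1* and 0.05 ± 0.076 SE for *Wipi2*, both readers of the lipid made by the PI3K complex (adjusted p = 0.308 to 0.660).

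In the initiation complex, *Ulk2* and *Rb1cc1* fell and the other 2 members did not pass the test. *Ulk2* (ENSMUSG00000004798, chr11:61775649-61855073, minus strand), one of its 2 kinases and, after *Sqstm1* and *Gabarap*, the most abundant member per kilobase in veh-treated WT mice, had 252, 266 and 254 CPM in veh-treated WT and 199, 196 and 219.5 CPM in App NL-G-F mice given veh. The groups were separated by more than 30 CPM, and the log2 fold change was -0.33 ± 0.055 SE (edgeR adjusted p = 0.000714). *Rb1cc1*, which encodes FIP200, the scaffold of the complex, had 67.9, 69.7 and 62.2 CPM in WT and 44.4, 49.7 and 56.4 CPM in App NL-G-F mice. It fell with a log2 fold change of -0.41 ± 0.090 SE (edgeR adjusted p = 0.00392). App NL-G-F library 3, with the lowest astrocyte marker level of its group, was the nearest to the WT libraries. With rh Bri2 BRICHOS, App NL-G-F library 2 had the lowest astrocyte marker level of its group (801.5 CPM). Its *Rb1cc1* level was also the lowest, 46.4 CPM against 47.3 and 48.1 CPM, but these levels lay close together (SD 1.83% of the mean). Whether *Rb1cc1* follows the astrocyte marker level within a group was not tested. The other kinase, *Ulk1*, had a log2 fold change of 0.08 ± 0.084 SE (adjusted p = 0.467) and *Atg13*, the adaptor of the kinases, one of 0.08 ± 0.067 SE (adjusted p = 0.384).

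In the class III PI3K complex and its regulators, *Rubcn* and *Atg14* fell and 5 members did not pass the test. *Rubcn* (ENSMUSG00000035629, chr16:32821703-32877766, minus strand) had 65.5, 72.2 and 71.98 CPM in veh-treated WT and 51.99, 48.9 and 53.6 CPM in App NL-G-F mice given veh. No library of one group reached the other, and the level was lower by a log2 fold change of -0.44 ± 0.082 SE, to 0.736 of the WT level (edgeR adjusted p = 0.00145), the largest decrease of the members. *Fyttd1*, whose exons overlap *Rubcn* on the opposite strand, had a log2 fold change of -0.06 (adjusted p = 0.558). *Atg14*, the subunit that directs the complex to early autophagic membranes, had 28.01, 36.2 and 33.7 CPM in WT and 26.7, 27.96 and 27.1 CPM in App NL-G-F mice. WT library 1 lay within 0.1 CPM of the highest App NL-G-F library, and the log2 fold change of -0.26 ± 0.093 SE only just passed (edgeR adjusted p = 0.0456). The call was lost with DESeq2's Wald test (adjusted p = 0.0551), with edgeR on only the compared groups, without a filter on low counts and in 5 of the 6 omissions of a single library of these groups.

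The catalytic core of the complex did not pass the test. *Pik3c3*, the kinase Vps34, had a log2 fold change of -0.03 ± 0.083 SE, and *Pik3r4*, its regulatory subunit, one of 0.07 ± 0.083 SE. *Becn1*, the subunit shared by its forms, was higher in all 3 App NL-G-F libraries (104, 110.1 and 94.2 CPM) than in the WT ones (90.2, 93.4 and 90.1 CPM), with a log2 fold change of 0.17 ± 0.068 SE (edgeR adjusted p = 0.0687). *Uvrag*, which takes the place of Atg14 in the later form of the complex, had a log2 fold change of -0.02 ± 0.056 SE and *Ambra1*, which links Becn1 to its regulators, one of -0.18 ± 0.089 SE (adjusted p = 0.779 and 0.142). The single tether, *Epg5*, which joins autophagosomes to lysosomes, had a log2 fold change of -0.10 ± 0.085 SE (adjusted p = 0.391).

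**Figure D3:**
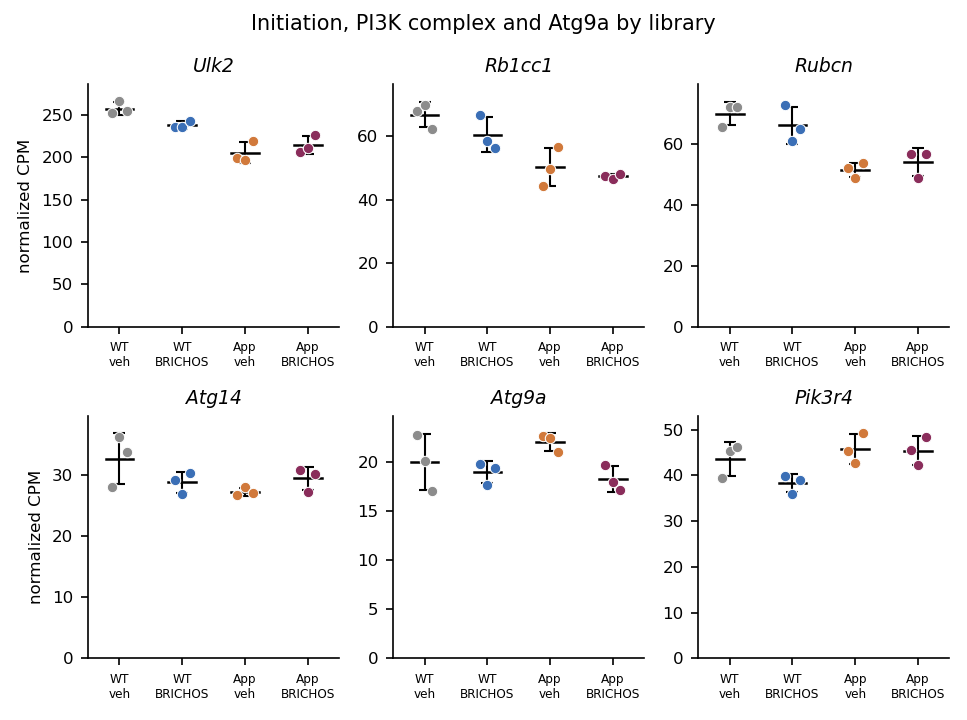
Normalized CPM in each of the 12 libraries (points), with the mean and SD of each group of 3 (lines), for *Ulk2*, *Rb1cc1*, *Rubcn*, *Atg14*, *Atg9a* and *Pik3r4*, on axes that start at 0. The App NL-G-F libraries lie below the WT libraries of the same treatment for *Ulk2*, *Rb1cc1* and *Rubcn*.

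In 2 other fits the veh groups had fewer calls, over all genes as well as among the members. With the astrocyte marker score as a covariate, 4 members were higher (*Optn*, *Atg7*, *Gabarapl1* and *Map1lc3a*) and 0 were lower, by edgeR at an adjusted p-value under 0.05 (7.53% of all tested genes were higher and 4.72% lower). *Sqstm1*, *Gabarap*, *Map1lc3b*, *Atg5* and *Vmp1* lost their call. The astrocyte marker sums of the veh groups did not overlap (585.6 to 799.0 CPM in WT, 1729 to 5453 CPM in App NL-G-F mice). The score thus goes with the strain there, and this fit cannot fully separate them. Of the 4 members lower in the fit without the covariate, *Rubcn* then had a log2 fold change of -0.40, *Atg14* of -0.33, *Ulk2* of -0.23 and *Rb1cc1* of -0.18 (adjusted p = 0.134, 0.283, 0.168 and 0.481). Without App NL-G-F libraries 1 and 2, which left 1 library in that group whose spread was then taken from the other groups, 6 were higher (*Optn*, *Atg7*, *Gabarap*, *Gabarapl1*, *Map1lc3a* and *Vmp1*) and 0 lower (9.71% and 6.26% of all tested genes). The log2 fold changes of the 4 were then -0.37 for *Rubcn*, -0.26 for *Atg14*, -0.22 for *Ulk2* and -0.23 for *Rb1cc1* (adjusted p = 0.068, 0.258, 0.0839 and 0.203).

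The same strain comparison in the rh Bri2 BRICHOS-treated mice used none of these 6 libraries, although it comes from the same fit. Here 12 of the 34 members were higher (35.3%, against 20.8% of all tested genes) and 3 were lower (8.82%, against 21.8%). The median log2 fold change of the members was 0.074, compared to -0.042 for all tested genes. The 12 included each of the 9 members that were higher in the veh groups (100% of those 9 and 75.0% of the 12), and the 3 lower ones were among the 4 of the veh groups (75.0% of the 4). The same overlap was not counted over all tested genes, so these shares have no background beside them. The App NL-G-F libraries lay above all WT libraries in 14 members and below them in 3 (41.2% and 8.82%, against 25.3% and 26.4% of all tested genes).

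*Optn* had 9.38, 9.41 and 8.700 CPM in the treated WT mice and 25.8, 25.4 and 27.4 CPM in the treated App NL-G-F mice, a 2.86-fold difference (log2 fold change 1.51 ± 0.084 SE, edgeR adjusted p = 9.49e-08). App NL-G-F library 2 of this pair of groups had an astrocyte marker level of 801.5 CPM, within the range of the WT libraries, and 25.4 CPM of *Optn*. *Sqstm1* had 395, 426 and 454 CPM in WT and 747, 1375 and 814 CPM in App NL-G-F mice. The value of 1375 CPM was that of library 2 again, and the log2 fold change of 1.203 ± 0.20 SE (edgeR adjusted p = 0.000575) was 0.88 without it (adjusted p = 0.000242).

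*Atg7* had 25.8, 26.7 and 20.8 CPM in the treated WT and 45.7, 48.6 and 45.9 CPM in the treated App NL-G-F mice (log2 fold change 0.94 ± 0.085 SE, edgeR adjusted p = 5.97e-06). The same 4 Atg8 genes were higher. *Gabarap* had 193, 227 and 236 CPM in WT and 333, 382 and 332 CPM in App NL-G-F mice (log2 fold change 0.68 ± 0.080 SE, edgeR adjusted p = 4.81e-05), and *Gabarapl1* had 80.4, 76.4 and 78.8 and 117, 131 and 113 CPM (log2 fold change 0.61 ± 0.068 SE, edgeR adjusted p = 2.95e-05). None of the libraries of the 2 groups overlapped for these genes. The log2 fold change was 0.51 ± 0.070 SE for *Map1lc3a* and 0.33 ± 0.061 SE for *Map1lc3b* (edgeR adjusted p = 0.000149 and 0.0012). *Gabarapl2* again did not pass the test, with 37.2, 38.97 and 34.5 CPM in WT and 34.7, 33.9 and 38.1 CPM in App NL-G-F mice (log2 fold change -0.05 ± 0.082 SE, adjusted p = 0.627). *Atg5* and *Vmp1* had log2 fold changes of 0.32 ± 0.070 and 0.23 ± 0.054 SE (edgeR adjusted p = 0.00342 and 0.00601).

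Decreases were seen in *Rb1cc1*, with 66.5, 58.4 and 56.3 CPM in the treated WT and 47.3, 46.4 and 48.1 CPM in the treated App NL-G-F mice (log2 fold change -0.35 ± 0.090 SE, edgeR adjusted p = 0.00801), and in *Rubcn*, with 72.7, 60.8 and 64.8 and 56.8, 48.7 and 56.6 CPM (log2 fold change -0.29 ± 0.082 SE, edgeR adjusted p = 0.0138). *Ulk2* was the third, with 235, 235 and 243 CPM in WT and 206, 211 and 226 CPM in App NL-G-F mice (log2 fold change -0.15 ± 0.055 SE, edgeR adjusted p = 0.0446). The groups did not overlap for any of these 3. The call of *Ulk2* was lost in 5 of the 6 omissions of a single library of these groups and also with DESeq2's size factors (adjusted p = 0.0915), DESeq2's Wald test, edgeR on only the compared groups, no filter on low counts and the astrocyte covariate. Leaving out WT library 1 or App NL-G-F library 2 left *Rb1cc1* as the only decrease. *Atg14*, with 29.1, 26.9 and 30.2 CPM in WT and 30.7, 27.3 and 30.2 CPM in App NL-G-F mice, had a log2 fold change of 0.03 ± 0.093 SE (adjusted p = 0.805).

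*Ulk1*, *Pik3r4* and *Atg13* passed the test only among the treated mice, with log2 fold changes of 0.25 ± 0.083, 0.24 ± 0.083 and 0.18 ± 0.067 SE (edgeR adjusted p = 0.0289, 0.0326 and 0.0468). The difference between the strain effects with and without treatment is the contrast of the treatment effects given further on, and there *Ulk1*, *Pik3r4* and *Atg13* did not pass. With library totals in place of TMM factors, which shifts the median of all tested genes to -0.31, all 3 had values below 0 (-0.02, -0.02 and -0.09). *Becn1* stood just outside the threshold here too (log2 fold change 0.18 ± 0.068 SE, edgeR adjusted p = 0.0517).

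Other genes of the pathway were taken from a list of 89, of which 87 were tested. Between the veh groups 27 of them were higher (31.0%) and 13 lower (14.9%) in App NL-G-F mice, beside the 20.1% and 16.9% of all tested genes. With the astrocyte marker score as a covariate the counts were 11 and 5 (12.6% and 5.75%, against 7.53% and 4.72% of all tested genes). Among the treated mice, 30 were higher and 9 lower (34.5% and 10.3%, against 20.8% and 21.8% of all tested genes).

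Of 14 further genes of the core machinery, 2 rose and 1 fell (14.3% and 7.14%, against 20.1% and 16.9% of all tested genes). *Nrbf2*, a subunit of the Atg14 form of the PI3K complex, had 13.6, 15.1 and 13.2 CPM in veh-treated WT and 29.6, 36.4 and 31.7 CPM in App NL-G-F mice given veh (log2 fold change 1.22 ± 0.13 SE, edgeR adjusted p = 2.81e-05). *Atg16l2*, a relative of *Atg16l1*, had a log2 fold change of 0.98 ± 0.21 SE, and *Ulk3*, a relative of the initiating kinases, one of -0.30 ± 0.089 SE (edgeR adjusted p = 0.00305 and 0.0216). Of 17 further receptors and genes of selective autophagy, 6 rose and 3 fell (35.3% and 17.6%). The counts of these lists are small and were not tested against all genes. The largest increases were those of *Bnip3* (0.88 ± 0.095 SE) and *Phb2* (0.38 ± 0.070 SE), which act in mitophagy, and of *Tex264* (0.50 ± 0.077 SE), a receptor for endoplasmic reticulum (edgeR adjusted p = 2.42e-05, 0.00148 and 0.000375). The decreases were those of *Stbd1* (-0.54 ± 0.19 SE), a glycogen receptor, *Pink1* (-0.52 ± 0.14 SE), the kinase that starts mitophagy, and *Ncoa4* (-0.34 ± 0.063 SE), the ferritin receptor (edgeR adjusted p = 0.0458, 0.0113 and 0.00139).

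**Figure D4:**
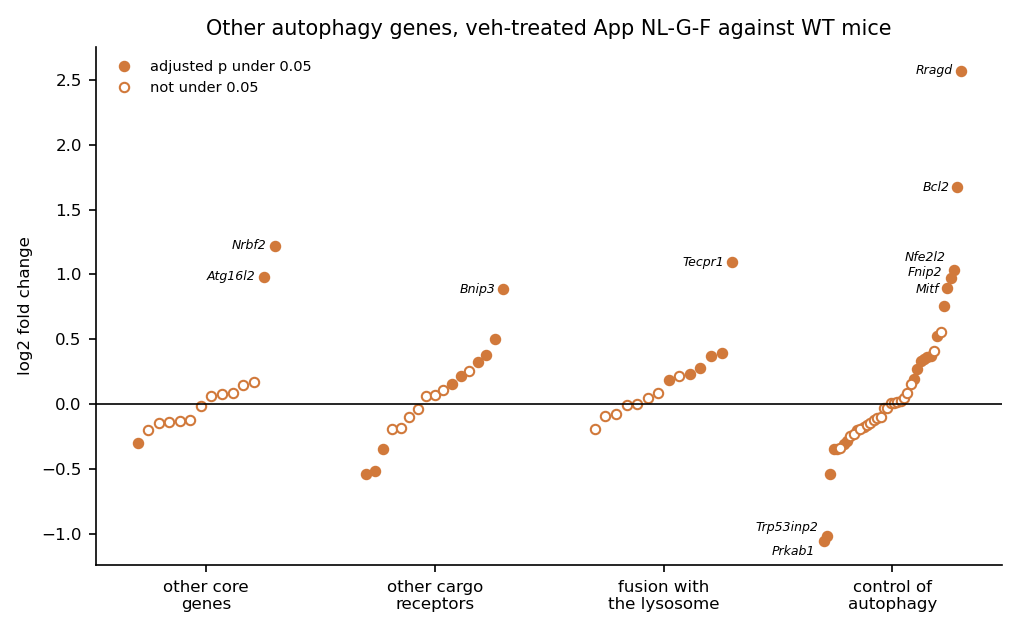
Log2 fold change, App NL-G-F over WT mice given veh, of the 87 tested genes from 4 further lists of the pathway, ordered by value within each list (edgeR, 3 mice per group). Filled points have an adjusted p-value under 0.05, and genes past it with an absolute value above 0.8 are named. *Rragd* lies highest at 2.57 and *Prkab1* lowest at -1.06.

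In the fusion list, 6 of 14 genes rose and none fell (42.9% and 0%, against 20.1% and 16.9% of all tested genes). The 6 include *Tecpr1* (1.09 ± 0.077 SE), a tether of autophagosomes, *Rab7* (0.40 ± 0.045 SE), the small GTPase of late endosomes, and its effector *Plekhm1* (0.37 ± 0.10 SE, edgeR adjusted p = 8.22e-07, 3.63e-05 and 0.0131). Of 42 genes that control autophagy, 13 rose and 9 fell (31.0% and 21.4%). These 2 counts were not tested against all genes either. *Rragd*, a GTPase that brings mTORC1 to the lysosome, had 6.37, 6.17 and 7.45 CPM in veh-treated WT and 45.1, 38.1 and 35.3 CPM in App NL-G-F mice given veh, a 5.95-fold difference (log2 fold change 2.57 ± 0.15 SE, edgeR adjusted p = 1.44e-07). *Bcl2*, which binds and restrains Becn1, rose with 1.67 ± 0.092 SE, and *Nfe2l2*, which encodes Nrf2, a transcription factor known to act on *Sqstm1*, with 1.03 ± 0.13 SE (edgeR adjusted p = 1.09e-07 and 0.000104). The decreases were led by *Prkab1*, a subunit of AMPK, with -1.06 ± 0.081 SE, *Trp53inp2* with -1.01 ± 0.27 SE and *Sesn1*, a sensor upstream of mTORC1, with -0.54 ± 0.084 SE (edgeR adjusted p = 1.54e-06, 0.0117 and 0.000385).

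The 3 related transcription factors that bind E-boxes of lysosomal and autophagy genes are *Mitf*, *Tfe3* and *Tfeb*. *Mitf* rose from 39.7 ± 1.395 to 74.1 ± 2.76 CPM (SD, n = 3 each, log2 fold change 0.90 ± 0.053 SE, edgeR adjusted p = 1.95e-07). *Tfe3* fell, with a log2 fold change of -0.31 ± 0.080 SE (edgeR adjusted p = 0.0106), and *Tfeb* did not pass the test (-0.11 ± 0.077 SE, adjusted p = 0.287).

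Among the treated mice, *Nrbf2* (1.22 ± 0.13 SE), *Bnip3* (0.92 ± 0.095 SE), *Tecpr1* (1.15 ± 0.077 SE), *Rragd* (1.998 ± 0.14 SE) and *Mitf* (0.87 ± 0.053 SE) were again higher in App NL-G-F mice, and *Prkab1* (-1.03 ± 0.080 SE) was again lower (edgeR adjusted p = 7.22e-07 for *Rragd* and 2.14e-05 or less for the other 5). *Tfe3* (-0.16 ± 0.080 SE, adjusted p = 0.122) did not pass there, and neither did *Pink1*, *Stbd1* and *Trp53inp2* (-0.10 ± 0.14, 0.30 ± 0.19 and -0.31 ± 0.27 SE, adjusted p = 0.598, 0.225 and 0.370). The levels of *Trp53inp2* in WT mice were 238, 340.0 and 218 CPM with veh and 271, 146 and 126 CPM with rh Bri2 BRICHOS, and the oligodendrocyte markers of the same libraries summed to 13880, 16930 and 9668 CPM and to 15590, 6813 and 4154 CPM. The highest and lowest libraries of *Trp53inp2* were thus also those of these markers, whose part in the result was not tested.

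The effect of rh Bri2 BRICHOS was tested within each strain. In App NL-G-F mice, 0 of the 34 members passed an adjusted p-value under 0.05 by edgeR (0.00648% of all tested genes were lower and 0% higher) or by DESeq2's Wald test, and 1 passed an unadjusted p-value under 0.05 (2.94%, against 10.8% of all tested genes). That member was *Atg9a*, with 22.7, 22.4 and 20.97 CPM in the veh group and 19.6, 17.98 and 17.1 CPM in the rh Bri2 BRICHOS group of App NL-G-F mice. The groups did not overlap, but the difference failed the correction (log2 fold change -0.27 ± 0.10 SE, edgeR unadjusted p = 0.0235, adjusted p = 0.373). *Ankzf1*, whose exons overlap *Atg9a* on the opposite strand, had a log2 fold change of -0.02. With the astrocyte marker score as a covariate the value for *Atg9a* was -0.19.

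The next lowest p-values in App NL-G-F mice belonged to *Gabarap*, with 328, 324 and 299.7 CPM with veh and 333, 382 and 332 CPM with rh Bri2 BRICHOS (log2 fold change 0.14 ± 0.080 SE, edgeR unadjusted p = 0.107, adjusted p = 0.592), and to *Uvrag*, with 74.6, 70.2 and 68.2 CPM and 73.2, 77.9 and 75.4 CPM (log2 fold change 0.09 ± 0.056 SE, unadjusted p = 0.143, adjusted p = 0.635). The libraries of *Uvrag* overlapped, and those of *Gabarap* were separated by less than 5 CPM. Across the members the log2 fold changes ran from -0.27 to 0.15 with a median of 0.054. The treated libraries lay above all veh libraries in 3 members and below them in 1 (8.82% and 2.94%, against 6.37% and 7.09% of all tested genes).

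In WT mice, 0 of the 34 members passed an adjusted p-value under 0.05 by edgeR (0% of all tested genes in either direction) or by DESeq2's Wald test, and 1 passed the unadjusted threshold (2.94%, against 11.4% of all tested genes). This was *Pik3r4*, with 39.4, 45.4 and 46.1 CPM with veh and 39.9, 36.05 and 39.1 CPM with rh Bri2 BRICHOS. Its groups overlapped (log2 fold change -0.19 ± 0.083 SE, edgeR unadjusted p = 0.0445, adjusted p = 0.428). *Ulk2* had 252, 266 and 254 CPM with veh and 235, 235 and 243 CPM with rh Bri2 BRICHOS (log2 fold change -0.11 ± 0.055 SE, edgeR unadjusted p = 0.0612, adjusted p = 0.46), and *Atg13* had 34.4, 34.04 and 33.98 CPM and 31.8, 30.5 and 30.97 CPM (log2 fold change -0.14 ± 0.067 SE, unadjusted p = 0.0678, adjusted p = 0.475). The treated WT libraries were below all veh libraries for both genes. This was so in 4 members and the reverse in 0 (11.8% and 0%, against 9.19% and 8.36% of all tested genes). The log2 fold changes of the members ran from -0.19 to 0.08 with a median of -0.070.

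**Figure D5:**
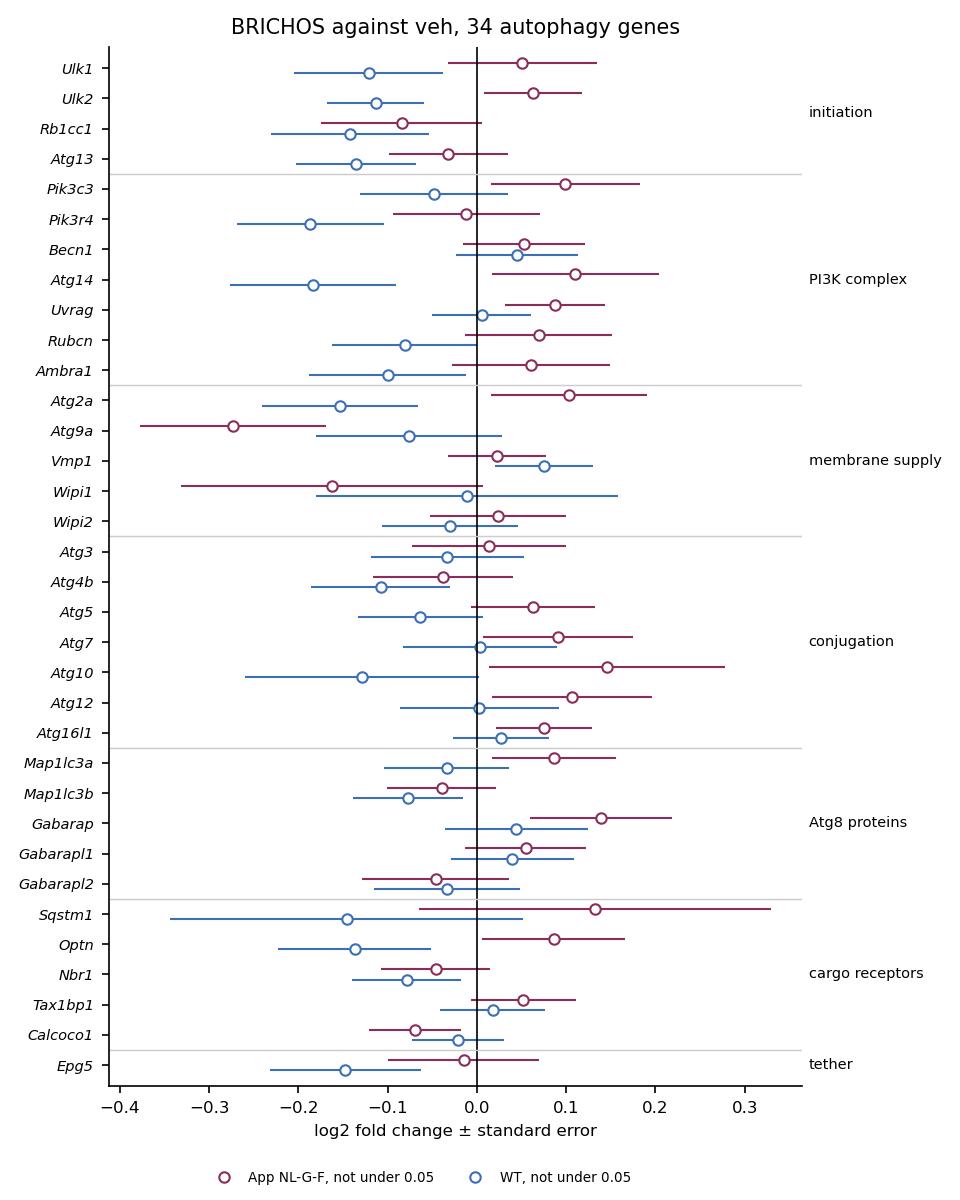
Log2 fold change ± standard error of the 34 members between rh Bri2 BRICHOS- and veh-treated mice, in App NL-G-F (purple) and WT mice (blue), from edgeR's fit of all 12 libraries. No member has an adjusted p-value under 0.05, all values lie between -0.27 and 0.15, and many members have a value above 0 in App NL-G-F and below 0 in WT mice.

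The treatment effect in App NL-G-F mice was then set against that in WT mice. In this contrast 0 of the 34 members passed an adjusted p-value under 0.05 by edgeR (0.00648% of all tested genes were below 0 and 0% above) or by DESeq2's Wald test, and 2 passed the unadjusted threshold (5.88%, against 14.8% of all tested genes). They were *Ulk2* (difference of log2 fold changes 0.18 ± 0.077 SE, edgeR unadjusted p = 0.0428, adjusted p = 0.325) and *Atg14* (0.29 ± 0.13 SE, unadjusted p = 0.0464, adjusted p = 0.332). The mean of *Ulk2* was lower with rh Bri2 BRICHOS than with veh in WT mice and higher in App NL-G-F mice (257 ± 7.57 and 238 ± 4.404 CPM in WT, 205 ± 12.5 and 214 ± 10.8 CPM in App NL-G-F mice with veh and rh Bri2 BRICHOS, SD, n = 3 each). *Atg14* had the same order of means (32.6 ± 4.21 and 28.7 ± 1.68 CPM in WT, 27.2 ± 0.661 and 29.4 ± 1.88 CPM in App NL-G-F mice).

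*Atg2a* had the next lowest p-value, with 53.6, 52.4 and 50.9 CPM in veh-treated WT and 48.2, 41.8 and 51.1 CPM in rh Bri2 BRICHOS-treated WT mice, and with 47.5, 53.2 and 44.4 CPM in App NL-G-F mice given veh and 54.9, 52.6 and 48.3 CPM in App NL-G-F mice given rh Bri2 BRICHOS. The libraries overlapped in both strains, and the difference of log2 fold changes was 0.26 ± 0.12 SE (edgeR unadjusted p = 0.061, adjusted p = 0.361). For *Ulk1*, *Pik3r4* and *Atg13* it was 0.17 ± 0.12, 0.17 ± 0.12 and 0.10 ± 0.095 SE (adjusted p = 0.527, 0.515 and 0.662).

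The signs of the treatment effects were uneven although no single member passed. In App NL-G-F mice 23 of the 34 members had a value above 0 (67.6%, against 52.0% of all tested genes), in WT mice 9 did (26.5%, against 49.1%), and in the contrast between the strains 29 did (85.3%, against 52.1%). The contrast is the difference of the other 2 effects, so its share is not a separate observation. Among the 87 other pathway genes tested, 63.2%, 32.2% and 72.4% had a value above 0, so the unevenness was not particular to the members. Genes of a pathway vary together within a library, so these shares describe the 12 libraries and carry no p-value. With DESeq2's size factors the counts of members were 25, 9 and 30. With library totals in place of TMM factors they were 19, 13 and 19, and there the median of all tested genes itself moved, in the contrast from 0.015 to -0.066. The median of the members in the contrast was 0.091 with TMM factors and 0.0092 with library totals, so that it lay above the median of all tested genes under both scalings.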

How the data were processed

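The deposited values are raw counts of each gene, which the authors made by trimming the reads, aligning them with STAR (GRCm38) and counting with featureCounts. Per the labels, the versions were STAR 2.6.1d and featureCounts 1.5.1 (the study's methods name a different STAR version), and the libraries were stranded mRNA libraries. The strand setting of the counting is not given in the sources used here. Libraries were assigned to groups by their names. The software was edgeR 4.0.16 and DESeq2 1.42.0 under R 4.3.3, and pandas 2.3.3 with matplotlib 3.10.9 under Python 3.11.15. Genes kept by filterByExpr (minimum count 10) were scaled with TMM factors, and edgeR's quasi-likelihood test was run on 1 fit of all 12 libraries, in which each of the 4 groups had its own mean. The p-values were adjusted by the Benjamini-Hochberg method across the 15425 genes tested. They measure the spread between mice, 3 per group, and p-values of single members were not adjusted over the members alone. The standard error is the log2 fold change divided by the square root of the F statistic. Limits from 3 counts cover counting error only.

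The members and lists were chosen with earlier results of these data known. Values of every library are given for the Atg8 genes, *Sqstm1*, up to 5 members that rose and 5 that fell most between the veh groups, and the 3 lowest p-values of each treatment contrast. Of each list of other pathway genes, up to 3 are named in each direction. *Vmp1*, *Atg5*, *Atg10* and *Becn1* were added after their values were seen. Exon lengths are those of GENCODE. The members without a listed start are *Atg12*, *Atg16l1*, *Becn1*, *Epg5*, *Map1lc3a*, *Pik3c3* and *Rb1cc1*. The alternatives were DESeq2's size factors, library totals, DESeq2's Wald test, edgeR with only the compared groups, other filters on low counts, a block for the replicate number, a covariate for the astrocyte marker score (mean log2 CPM of 8 markers), and leaving out single libraries. The omission of App NL-G-F libraries 1 and 2 of the veh group together was added after seeing the data. The test was checked on simulated counts of 15065 genes for the comparison of the veh groups, where it found 75 of 100 genes changed 1.5-fold and 91 of 100 changed 2-fold, with 6 false calls. The changed genes were drawn only from the more abundant ones, and all were raised in the App NL-G-F group. The real comparison called 3099 genes higher and 2611 lower. The simulated counts had the spread that the fit itself had estimated, and shifts in cell content were not simulated. These figures are therefore not error rates of the real comparison. Smaller fold changes and the treatment comparisons were not simulated.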

Additional observations from a re-analysis of the deposited data

How the results depend on the processing

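Of 570 alternative values for named members, 493 kept their direction and side of the threshold, 73 kept the direction and lost the call, and 4 changed sign. The 570 include the members with the lowest p-values of the treatment contrasts, which had no call to lose, so the 493 is not a share of calls kept. Those 4 arose in the rh Bri2 BRICHOS groups with library totals in place of TMM factors, where *Ulk1* (-0.018), *Atg13* (-0.087), *Pik3r4* (-0.024) and *Vmp1* (-0.043) were below 0. Under that scaling the strain comparison of the veh groups called 6 members higher and 14 lower, and that of the treated groups 6 and 14. In the veh groups 15 other pathway genes were higher and 34 lower. The median of all tested genes moved to -0.21 and -0.31. Of all 15425 tested genes, 2004 were higher and 5198 lower in the veh groups, against 3099 and 2611 with TMM factors. In the treated groups 1590 were higher and 7008 lower, against 3202 and 3358. With the astrocyte marker score as a covariate, the veh groups had 4 members higher, 0 lower, and 11 and 5 other pathway genes (1161 and 728 of all genes). Without App NL-G-F libraries 1 and 2 of the veh group, an alternative chosen after seeing the data, 0 members were lower, and 16 other pathway genes were higher and 5 lower. Omitting single libraries gave 8 to 9 members higher and 3 to 4 lower in the veh groups, 9 to 13 and 1 to 3 in the treated groups, 22 to 29 and 9 to 14 other pathway genes, and 0 members in each treatment contrast. Of the 15696 to 15907 genes tested in these fits, 2570 to 3239 were higher and 1879 to 2742 lower in the veh groups. In the treated groups the ranges were 2789 to 3276 and 2672 to 3417. *Atg14* and *Atg5* in the veh groups and *Ulk1*, *Ulk2*, *Atg13* and *Pik3r4* in the treated groups lost their call without at least 1 single library, as did *Rubcn* in the treated groups. DESeq2's Wald test called 5 genes higher and 114 lower for rh Bri2 BRICHOS against veh in App NL-G-F, 64 and 16 in WT, and 27 and 217 in the contrast, none of them members. The cause of these changes was not tested.

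The groups share replicate numbers, but the mice are different, and the main fit did not pair the libraries by number. The correlation of the deviations of equally numbered libraries was between -0.114 and 0.264 over the pairs of groups. In 24 of 36 comparisons of a library with another group, the best match had its own number. That is more than if the best match fell evenly on the 3 numbers, but the 36 comparisons are not independent. Each pair of groups was counted from both sides, and the deviations within a group sum to 0. No conclusion is drawn from the count. Whether equally numbered libraries were handled together was not tested. With the replicate block, 9 members were higher and 3 lower in the veh groups, 12 and 3 in the treated groups, 0 in each treatment contrast, and 28 and 12 other pathway genes. Of all 15425 genes tested with the block, 3209 were higher and 2782 lower in the veh groups and 3315 and 3507 in the treated groups. *Atg14* (adjusted p = 0.0584, veh groups) and *Atg13* (0.052, treated groups) lost their call.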
